A study of Saturnispora dispora and Saturnispora hagleri and Saturnispora mendoncae with 16 samples.

Results

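*Sat. hagleri* (Shag) and *Sat. mendoncae* (Smen) are budding yeasts of one genus that differ in how fast they acidify their medium when glucose is added. This speed, the extracellular acidification rate (ECAR), serves as a proxy for the flow of glucose through glycolysis. Shag belongs to the rapid ECAR class and Smen to the low ECAR class. The 8 libraries of this pair, out of 16 in the series, were chosen by species label, with 4 biological replicates of Shag and 4 of Smen. The pair was picked as the rapid and low species whose libraries overlap in the library-wide scaling described below. Poly(A) RNA was sequenced to ask how the transcript levels of central carbon metabolism differ between yeasts of the 2 ECAR classes. No gene was deleted and no drug was given. Both species were inoculated at an OD600 of 0.05 into synthetic complete medium containing 2% glucose, 50 ml in a baffled 250 ml flask, and shaken at 225 rpm and 22 °C until log phase. Shag was collected after 15 h and Smen after 18 h, hours that were set to meet mid-log growth in each. Species, hour of collection and ECAR class change together here, so they cannot be told apart, and no strain is named in the labels.

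Levels were compared as TPM, counts divided by gene length and scaled to the same total in each library, for orthogroups, which are sets of genes descended from 1 ancestral gene. Of 5029 orthogroups in the table, 4493 had a value in both species and form the comparison, while 347 had a value in Shag and not in Smen and 122 in Smen and not in Shag. The 105 shared orthogroups with a mean under 5 TPM over the 8 libraries were left out of the tests, which leaves 4388. TPM is a share of each library, so a lower share of a transcript and more RNA from all other genes cannot be told apart.

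In glycolysis, glucose is carried into the cell, phosphorylated and split into triose phosphates, and these are oxidised to pyruvate with a net gain of ATP. Yeasts that ferment in the presence of oxygen then turn pyruvate into ethanol, with alcohol dehydrogenase as the last enzyme. The files do not pair gene IDs with names, and 10 genes could be named through 16 gene IDs in tables of predicted promoter binding sites and in a tree of *GAL4*. They are the sugar uptake and upper pathway genes *HXT*, *HXK* and *PFK*, the genes of triose formation *FBA* and *TPI*, the lower pathway genes *TDH*, *GPM* and *ENO*, the fermentation gene *ADH*, and the regulator gene *GAL4*. In Smen, *HXT*, *HXK*, *PFK*, *TPI* and *ADH* are named only as members of the orthogroup of the named Shag gene.

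The libraries held 8828330 to 12125393 counts in genes in Shag (median 11282262) and 10026039 to 13928456 in Smen (median 11812044). A factor for each library, the median of its TPM ratios to the mean library, was between 0.883 and 1.20 in Shag and between 0.956 and 1.02 in Smen. The overlap of these ranges follows from how the pair was picked and is no result of its own. The Shag replicates were more unlike each other than the Smen replicates. The median SD of log2(TPM + 1) was 0.296 in Shag and 0.097 in Smen, and it was larger in Shag for 3976 of the 4388 orthogroups (90.6%). Shag replicate 3 was farthest from its species mean, with a root mean square deviation of 0.473 on the log2 scale against 0.179 to 0.396 in the other Shag libraries. Without it the median SD of Shag was 0.211. Of the variance among Shag replicates, 91.1% lay along a single axis, against 45.1% in Smen.

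All 9 glycolysis and fermentation genes that could be named had higher transcript levels in Shag, by 1.77-fold (*TDH*) to 5.85-fold (*FBA*) in TPM. Each was called by limma at an adjusted p under 0.05, and in each the lowest Shag replicate lay above the highest Smen replicate. Of all orthogroups tested 63.8% were called, 34.2% as higher in Shag and 29.6% as higher in Smen. Replicates did not overlap in 60.1% of orthogroups, with Shag higher in 31.8%. The list of 13 genes of the pathway also holds *PGI*, *PGK*, *PYK* and *PDC*, which are not analysed here. The median difference of the 9 genes was 1.77 on the log2 scale, against 0.06 over all orthogroups tested. Without Shag replicate 3, the lowest Shag library for each of the 9 genes, all 9 were called as well, with log2 differences from 0.89 (*TDH*) to 2.59 (*FBA*). Since the names come from a study of the promoters of glycolytic genes, chosen with these data in hand, the list is not independent evidence of its direction.

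**Figure D1:**
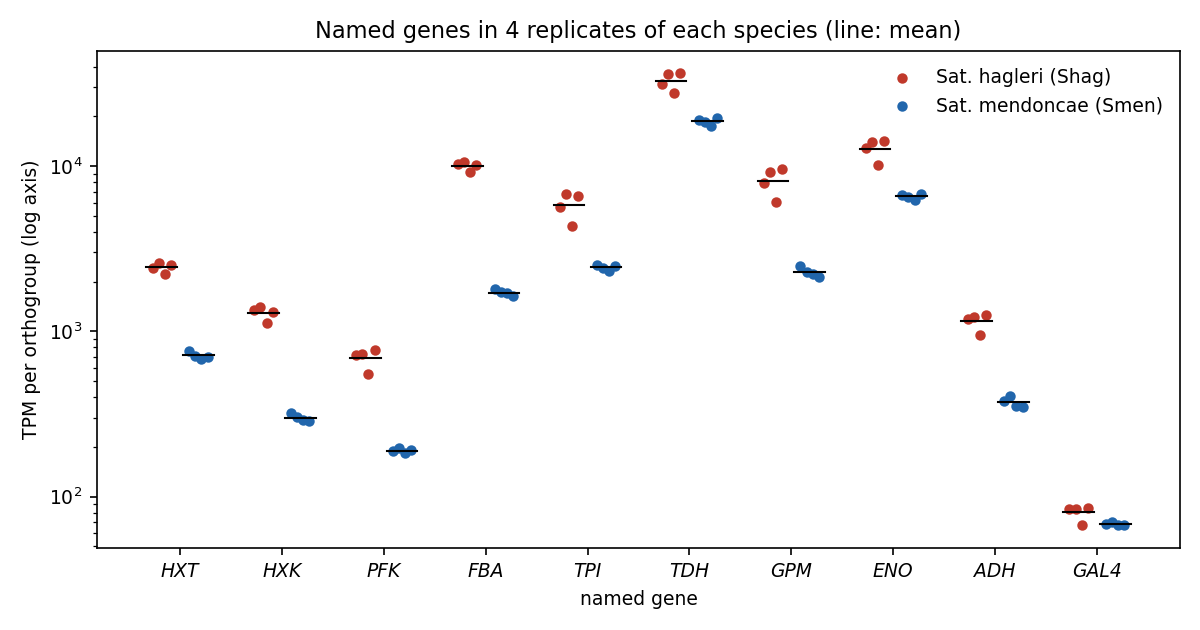
TPM (log axis) of each named gene in the 4 Shag and 4 Smen libraries, with 1 point per replicate and a line at the species mean, ordered along the pathway from sugar uptake to ethanol, with *GAL4* last. The points of the species are apart for the 9 genes of glycolysis and fermentation and overlap for *GAL4*, and in Shag the third point, replicate 3, is the lowest for every gene.

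*HXT* encodes a hexose transporter, which lets glucose across the plasma membrane. It had 2427, 2576, 2216 and 2520.4 TPM in Shag replicates 1 to 4 and 763, 711, 678 and 704 TPM in Smen replicates 1 to 4. All Shag libraries were far above all Smen libraries. The means were 2435 ± 159 and 714 ± 35.6 TPM (SD, n = 4 each), a log2 difference of 1.77 (SE 0.09, limma adjusted p = 2.65e-07). This difference depended on gene length: *HXT* is 1 gene of 528 codons in Shag and 2 genes of 1077 codons together in Smen, and without division by length the log2 difference was 0.75 (limma adjusted p = 3.55e-05).

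*HXK* encodes a hexokinase, the enzyme that phosphorylates glucose so that it stays in the cell. Its levels were 1345, 1402, 1125 and 1310.2 TPM in Shag and 322, 302, 290.7 and 287.3 TPM in Smen. The species did not overlap, and the mean of 1296 ± 119.9 TPM in Shag was 4.31-fold that of 300.4 ± 15.6 TPM in Smen. The log2 difference was 2.102 (SE 0.10, limma adjusted p = 1.38e-07). The coding lengths were close, with 469 codons in Shag and 465 in Smen.

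*PFK* encodes phosphofructokinase, whose reaction commits the sugar to glycolysis and which in *S. cerevisiae* is built from unlike subunits of separate genes. The orthogroup had 715, 733, 549 and 773 TPM in Shag and 188, 196, 183 and 192 TPM in Smen. Again no Smen library reached a Shag library. The means were 693 ± 98.8 and 189.9 ± 5.34 TPM, 3.65-fold apart, with a log2 difference of 1.85 (SE 0.12, limma adjusted p = 8.73e-07). The summed length of the orthogroup was 1937 codons in Shag and 2981 in Smen, and without gene length the log2 difference was 1.24. In each species 2 genes of it had reads, but a gene without reads would add to the length unseen.

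*FBA* encodes the aldolase that splits fructose-1,6-bisphosphate into triose phosphates. It showed the widest gap of the named genes, at 10325, 10513, 9156 and 10106 TPM in Shag and 1800.5, 1723, 1695 and 1639.7 TPM in Smen. In Shag it ranked 5 or 6 among the orthogroups of each library and in Smen 132 to 143, so a transcript near the top in one yeast was a middling one among the abundant transcripts of the other. The log2 difference of 2.55 (SE 0.10, limma adjusted p = 5.50e-08) exceeded that of 97.7% of the orthogroups tested. *TPI* encodes the triosephosphate isomerase that lets both trioses continue down the pathway. Its levels of 5658, 6748, 4323 and 6588 TPM in Shag and 2534, 2408, 2325 and 2499 TPM in Smen gave a log2 difference of 1.23 (SE 0.15, limma adjusted p = 6.01e-05). The species were apart, although Shag replicate 3 was the nearest to Smen.

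*TDH*, *GPM* and *ENO* encode glyceraldehyde-3-phosphate dehydrogenase, phosphoglycerate mutase and enolase, enzymes of the lower part of the pathway. *TDH* was the most abundant orthogroup in every Shag library, with 31479, 36086, 27611 and 36382 TPM, and held rank 3 in every Smen library, with 19100.2, 18474, 17404 and 19502 TPM. Of the 9 genes it had the smallest log2 difference in TPM, 0.81 (SE 0.14, limma adjusted p = 0.000655), and the groups still did not overlap. Without gene length it was 0.82, above the 0.75 of *HXT*. *GPM* had 7872, 9197, 6019 and 9605 TPM in Shag and 2489, 2298, 2231 and 2144 TPM in Smen. Every Shag library lay above every Smen library, with a log2 difference of 1.81 (SE 0.15, limma adjusted p = 6.14e-06). *ENO* had 12793, 13984, 10096 and 14086 TPM in Shag and 6691, 6491, 6243 and 6753 TPM in Smen. Every Shag library was higher, by a log2 difference of 0.95 (SE 0.13, limma adjusted p = 0.000185). When the test asked for a change above 2-fold, *TDH* and *ENO* were not called (limma adjusted p = 1 for both), nor was *TPI* (limma adjusted p = 0.36).

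*ADH* encodes alcohol dehydrogenases, which interconvert acetaldehyde and ethanol. Its orthogroup of 3 genes in each species had 1184, 1221, 956 and 1257 TPM in Shag and 380.3, 404, 352 and 349 TPM in Smen. All 4 Shag libraries stood above all 4 Smen libraries, and the log2 difference was 1.63 (SE 0.11, limma adjusted p = 1.44e-06). *GAL4* is no enzyme gene but encodes a transcription factor, known in *S. cerevisiae* as the activator of the galactose genes. It had 83.7, 84.5, 67.1 and 85.7 TPM in Shag and 68.0, 69.965, 67.7 and 67.5 TPM in Smen. The groups overlapped because Shag replicate 3 fell below all Smen libraries, and the log2 difference of 0.22 was not called (SE 0.10, limma adjusted p = 0.0860). Without Shag replicate 3 it was 0.31 and called (limma adjusted p = 0.00439), and without gene length it was 0.07 (limma adjusted p = 0.504), the gene having 944 codons in Shag and 1061 in Smen.

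**Figure D2:**
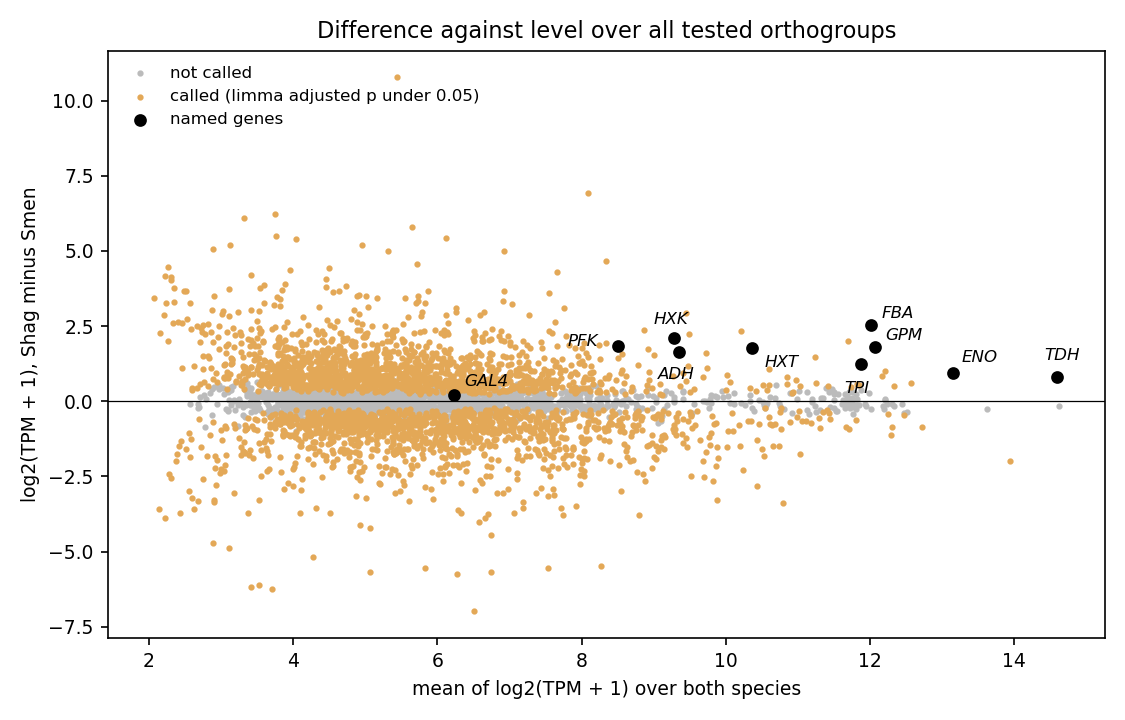
Log2 difference (Shag minus Smen, in log2(TPM + 1)) of each tested orthogroup against its mean log2(TPM + 1) over both species, with called orthogroups in orange, those not called in grey and the named genes in black. The 9 glycolysis and fermentation genes lie above 0, between 0.81 and 2.55, and *GAL4* lies at 0.22 within the grey band.

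As shares of the transcriptome, the 9 genes together took 7.38%, 8.25%, 6.21% and 8.26% of TPM in Shag and 3.43%, 3.30%, 3.14% and 3.41% in Smen. The yeasts did not differ in this way in how concentrated their transcriptomes were. The 10 most abundant orthogroups of a library held 12.2% to 14.7% of TPM in Shag and 13.2% to 13.9% in Smen. From 95 to 147 orthogroups made up 50% of TPM in Shag and 122 to 126 in Smen. By mean TPM, 5 of the top 10 orthogroups and 77 of the top 100 were the same in both species. The steps of the pathway were spread over the ranks, with *ENO* at rank 3 to 5 in Shag and 8 to 11 in Smen, *GPM* at 8 to 21 against 96 to 113, *TPI* at 13 to 56 against 95 to 105 and *HXT* at 58 to 104 against 250 to 258. *HXK* (149 to 168 against 465 to 508), *ADH* (163 to 179 against 387 to 434) and *PFK* (210 to 257 against 705 to 743) stood lower in both.

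Ratios between genes of the same library do not change with its scaling, and they showed that the 9 genes did not differ by 1 common factor. Of the 36 pairs, 30 had ratios that did not overlap between the species, and 32 when gene length was left out. The pairs share genes, and ratios between other orthogroups were not computed, so these counts do not set the 9 genes apart. *FBA* relative to *TDH* was 0.278 to 0.332 in Shag and 0.0841 to 0.0974 in Smen, 3.33-fold apart. It was 3.03-fold apart relative to *ENO*. *TDH* relative to *GPM* went the other way, at 3.79 to 4.59 in Shag and 7.67 to 9.10 in Smen, and *TPI* relative to *GPM* was 0.686 to 0.734 and 1.02 to 1.17. *TDH* and *ENO* kept nearly the same proportion, 2.46 to 2.74 against 2.79 to 2.89. The 6 pairs that overlapped in TPM were *HXT* with *PFK*, *GPM* and *ADH*, *PFK* with *HXK* and *GPM*, and *GPM* with *ADH*. These shared proportions held only in TPM for 5 of the 6 pairs. In counts without gene length only *GPM* with *ADH* still overlapped, while *PFK* relative to *GPM*, for example, was 0.618 to 0.706 in Shag and 0.905 to 1.07 in Smen. *HXT* relative to *TPI* turned direction, from a log2 difference of 0.53 in TPM to -0.49 in counts. Other pairs went from apart to overlapping: *HXT* relative to *TDH* was 0.0693 to 0.0802 against 0.0361 to 0.0400 in TPM, but in counts it was 0.109 to 0.126 against 0.116 to 0.128 and overlapped.

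**Figure D3:**
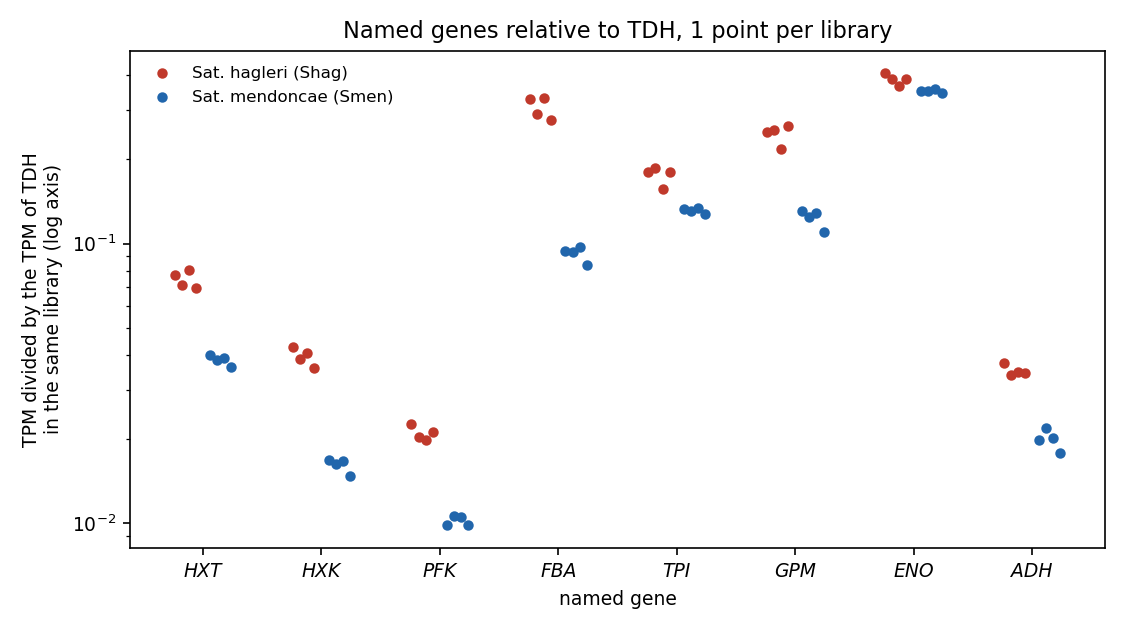
TPM of 8 named genes divided by the TPM of *TDH* in the same library (log axis), with 1 point per library for Shag (red) and Smen (blue). The species are apart for all 8 genes, most for *FBA* (0.278 to 0.332 against 0.0841 to 0.0974) and least for *ENO*.

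In the orthogroups that hold several genes, the copies were paired between the species by the gene IDs around them. IDs were taken as numbered along the assembly, and a pair had to share at least 3 orthogroups among the 10 IDs on either side. Of 4264 orthogroups with 1 gene in each species, 99.3% met this rule, with a median of 17 shared. Copies are compared in CPM, counts scaled to the same total over genes in each library, without a test, because only the summed length of an orthogroup follows from the files.

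For *HXT*, Smen had an additional gene that was almost silent. The copy g004100, which shares 17 neighbours with *HXT* of Shag, g002249, carried at least 99.97% of the reads of the orthogroup in Smen. The other copy, g003215, shares no neighbour with it and had 1, 11, 6 and 3 reads in the 4 libraries. Its largest share was 0.0328% (95% Wilson interval 0.0183% to 0.0587%, counting error only). Between the paired copies, Shag had 3830 to 4171 CPM and Smen 2314 to 2612 CPM, a 1.65-fold difference without overlap. Reads that match several genes were shared in fractions by the authors' counting, so counts of like copies are uncertain.

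Both *PFK* copies were higher in Shag, and by nearly the same factor. The pair g001509 and g003091, with 15 shared neighbours, had 1573 to 2257 CPM in Shag and 863 to 898 CPM in Smen, a 2.28-fold difference. The pair g004476 and g003826, with 13 shared neighbours, had 1907 to 2333 CPM and 868 to 938 CPM, a 2.39-fold difference. Each copy held 45.2% to 54.8% of the reads of the orthogroup in Shag and 48.9% to 51.1% in Smen, so the balance between the copies was close to even in both yeasts.

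The *ADH* copies differed in opposite directions. The main copy, g001303 in Shag and g003303 in Smen with 11 shared neighbours, had 3337 to 3981 CPM in Shag and 858 to 1048 CPM in Smen, a 4.06-fold difference that exceeds the 3.11-fold of the whole orthogroup. The minor copies were higher in Smen. The pair g002885 and g002154 had 18.3 to 40.4 CPM in Shag and 102 to 114.5 CPM in Smen, 3.71-fold higher in Smen, and the pair g005126 and g000946 had 63.4 to 81.3 and 228 to 250.0 CPM, 3.30-fold higher in Smen. None of the 3 pairs overlapped. The main copy thus took 97.3% to 97.6% of the reads of the orthogroup in Shag and 72.0% to 75.2% in Smen, and the orthogroup total hides that 2 of its 3 genes had lower values in Shag.

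**Figure D4:**
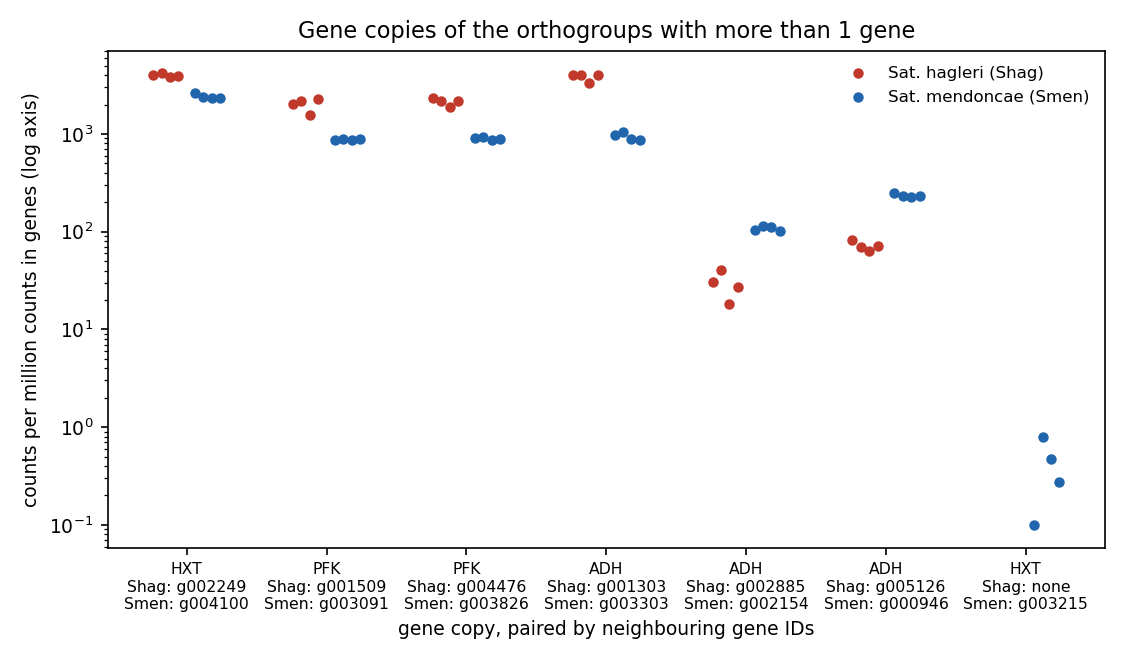
CPM (log axis) of each gene copy in the *HXT*, *PFK* and *ADH* orthogroups, 1 point per library, with the Shag and Smen IDs that were paired by neighbouring genes. Shag (red) is higher for the *HXT* and both *PFK* pairs and for 1 *ADH* pair, Smen (blue) is higher for the other *ADH* pairs, and the unpaired *HXT* gene of Smen stays under 1 CPM.

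Over all orthogroups, 2801 of the 4388 tested were called, 1502 higher in Shag and 1299 higher in Smen, and the replicates of 2584 of them did not overlap. The excess on the side of Shag was gone without Shag replicate 4, with 1454 higher in Shag and 1472 higher in Smen, and grew without Shag replicate 3, with 1817 and 1366. The median size of the difference over all orthogroups tested was 0.61 on the log2 scale. Called differences of at least 2-fold made up 29.3% of the orthogroups tested. A fold change of at least 2 was seen for 701 and 585 of the called orthogroups, at least 4 for 204 and 165, at least 8 for 68 and 54, and at least 64 for 4 and 4.

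The direction of the calls varied with level. From 5 to 20 TPM, 350 of 821 orthogroups were called higher in Shag and 176 higher in Smen. From 20 to 100 TPM the counts were 800 and 653 of 2311. Above that the balance lay with Smen, with 315 and 414 of 1072 orthogroups from 100 to 1000 TPM and 37 and 56 of 184 at 1000 TPM or more. The named glycolytic genes, 9 of which were called higher in Shag and most of which are in the highest classes, lay on the side with fewer calls. Fewest orthogroups were called in the highest class, 50.54%, where the median size of the difference was 0.37 on the log2 scale against 0.61 overall. By gene number, 63.3% of the 4194 orthogroups with 1 gene in each species were called, 76.56% of the 64 with more genes in Smen and 65.38% of the 52 with more in Shag.

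The orthogroups that separated the species most have no name in the files, and none of the named genes came close to them. Those described here were picked among the called ones for the widest gap between the replicates of the species. Their separation and p-values follow from that choice and are no evidence of their own. OG0000993 had 1675, 1922, 1492 and 2233 TPM in Shag, while in Smen it had 0.145 TPM in replicate 1 and was listed at 0 in replicates 2 to 4. A transcript that stood between *HXK* and *HXT* in Shag was therefore all but missing in Smen, although the table lists this orthogroup as present there. Its log2 difference of 10.77 moved from 8.49 to 13.82 with the pseudocount and gives no fold. The orthogroup passed the minimum mean of 5 TPM only through its Shag values. OG0002337, a short gene of 57 codons in Shag and 68 in Smen, had 2706, 3546, 2090.4 and 4142 TPM in Shag and 26.8, 23.3, 26.5 and 19.2 TPM in Smen. It was higher in every Shag library, with a log2 difference of 6.93 (SE 0.21, limma adjusted p = 1.19e-08).

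In the other direction, OG0004107, of 361 codons in Shag and 366 in Smen, had 5.96, 7.40, 5.23 and 10.8 TPM in Shag and 1081, 1035, 1006 and 978 TPM in Smen. The log2 difference was -6.98 (SE 0.18, limma adjusted p = 5.42e-09), with 60 to 129 reads per library behind the Shag values and 12048 to 16597 behind those of Smen. OG0002083 was near 0 in Shag, at 0.317, 0.377, 0.0556 and 0.335 TPM, and had 81.6, 106, 84.8 and 89.4 TPM in Smen. Its log2 difference of -6.17 lay between -8.05 and -4.17 with other pseudocounts. The orthogroup passed the minimum mean of 5 TPM only through its Smen values. The series also holds *Sat. dispora* (Sdis, rapid ECAR) and *Sat. silvae* (Ssil, low ECAR). In them OG0002337 lay between Shag and Smen, at 1344 ± 93.9 and 1211 ± 178 TPM (SD, n = 4 each), so there it was Smen that stood apart. OG0000993 had 692 ± 36.9 TPM in Sdis and 97.5 ± 36.8 TPM in Ssil. OG0004107 had 372 ± 83.8 TPM in Sdis and 2778 ± 30.6 TPM in Ssil, and OG0002083 had 0.456 ± 0.166 and 12.2 ± 1.49 TPM. For all of these unnamed orthogroups the order of the means followed the ECAR class, though Sdis and Ssil were close for OG0002337. The order of Shag and Smen within it was fixed by how the orthogroups were picked. Of the glycolysis and fermentation genes, *HXT*, *HXK*, *FBA*, *TDH*, *GPM* and *ENO* also had means that followed the class. *HXT*, for example, had 2237 ± 155 TPM in Sdis and 215.6 ± 6.38 TPM in Ssil, and *TDH* had 31006 ± 1556.5 and 25068 ± 1643 TPM. *TPI* had no value in Sdis. The means of *ADH* and *PFK* did not follow the class. *ADH* had 2295 ± 217 TPM in Sdis and 2350.3 ± 193 TPM in Ssil, and *PFK* had 519 ± 34.0 and 556 ± 30.7 TPM. In both genes Ssil was above Smen and no lower in its mean than Sdis. The share of all orthogroups whose means follow the class was not counted, so following it does not set the named genes or the unnamed orthogroups apart.

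Apart from these levels, the yeasts differed in which orthogroups they hold. The 347 found in Shag and not in Smen had a median of 40.1 TPM in Shag, close to the 45.8 TPM of the shared orthogroups, and took 4.57% to 5.80% of its TPM. The 122 found in Smen and not in Shag were lower, with a median of 15.5 TPM against 42.6 TPM for the shared ones, and took 1.47% to 1.60%. A mean under 5 TPM was found for 61 and 38 of them, at least 100 TPM for 79 and 13, and at least 1000 TPM for 8 and 3. Those only in Shag held 9 that were at 0 in all 4 libraries. Lengths, summed over the genes of an orthogroup, were known for 318 of the 347 and 103 of the 122. In these both sets were shorter, with a median of 253 codons in Shag and 246 in Smen, against 424 and 418 for shared orthogroups. Orthogroups with few or no counts could not be tied to genes and have no length here.

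The sets also differed in which other species hold them. Of the 347 orthogroups missing in Smen, 152 were present in both Sdis and Ssil, 145 in Sdis only, 9 in Ssil only and 41 in neither. Of the 122 missing in Shag, 24 were in both, 9 in Sdis only, 59 in Ssil only and 30 in neither. Presence here means a gene in the authors' orthogroup table, so a missing gene, an incomplete assembly or annotation and an ortholog placed in another orthogroup cannot be told apart.

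The most abundant orthogroup found only in Shag was present in neither of the other species and reached 8965, 9468, 8936 and 9836 TPM, rank 7 in Shag and close to *FBA*. It is a single gene of 252 codons with no name in the files. The next had 3534, 2618, 4246 and 1987 TPM, 168 codons and a value in both Sdis and Ssil. Its order among the Shag replicates was the reverse of that of *GPM*, with replicate 3 the highest. In Smen, the most abundant orthogroup absent from Shag had 3691, 3749, 3766 and 3484 TPM, rank 38 and 137 codons, and occurred in Sdis (4772 TPM) and Ssil (289.1 TPM) as well. The second, of 98 codons, had 3450, 3633, 3247 and 3122 TPM and was also found in both. These sets hold no named gene, so the difference in gene content could not be set beside the pathway.

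**Figure D5:**
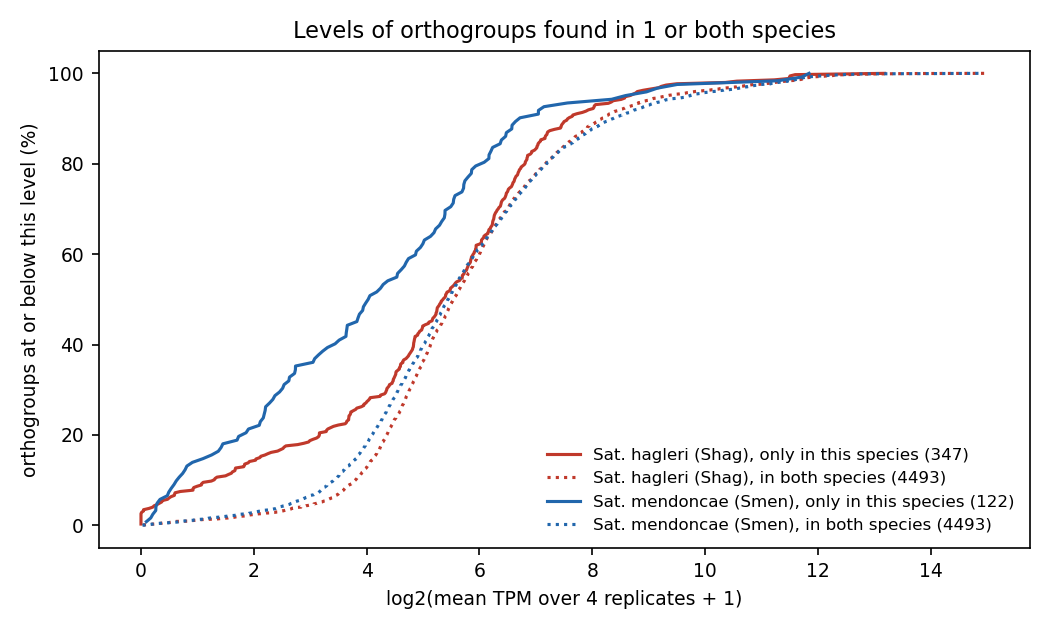
Cumulative share of orthogroups (%) against log2(mean TPM over 4 replicates + 1), for orthogroups found in only Shag (red line) or only Smen (blue line) and for the 4493 found in both (dotted lines). The line of those found only in Smen lies to the left, with a median of 15.5 TPM, while that of Shag meets the shared orthogroups near its median of 40.1 TPM.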

How the data were processed

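Per the labels and the methods, the authors trimmed reads with Trimmomatic 0.30, checked them with FastQC, aligned 150 bp pairs from a directional kit to each species' own genome with HISAT2 2.1.0 (builds not given in the sources used here) and counted pairs per gene with HTSeq 2.0.3. The deposited values per gene are expected counts, since pairs matching several genes were shared in fractions. The authors summed counts and gene lengths over each OrthoFinder orthogroup and computed the deposited TPM with edgeR. Dividing by length makes an orthogroup with a silent copy look lower, and TPM is relative to all other transcripts of the species.

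Reads outside genes were 3.08% to 4.1% of the total in Shag and 2.84% to 3.18% in Smen. All classes of reads listed apart from the genes (4.6% to 6.51% and 5.67% to 6.09%) were left out. These may include pairs matching several genes, whose fractions were also counted in genes. Samples were grouped by the species in their titles, and all replicates differed beyond sampling noise (chi-square per degree of freedom 7.06 to 335). The p-values set the difference between the species means against the spread between replicate cultures. That spread was pooled over both species, although it was larger in Shag.

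Log2(TPM + 1) of the 8 libraries was tested with limma 3.58.1 in R 4.3.3, with a variance trend and Benjamini-Hochberg adjustment over all orthogroups with a value in both species and a mean of at least 5 TPM. The pseudocount makes changes of weakly expressed orthogroups look smaller. Genes were tied to orthogroups where their counts were proportional to the TPM over the 4 libraries of a species within 1e-08, with at least 20 counts for 1 gene and 300 for sums of 2 to 4 genes. This gave 4772 orthogroups in Shag and 4566 in Smen, at least 99.8% of TPM, and was tested on simulated data. Lengths are coding lengths. A gene without counts cannot be seen in a sum, so gene numbers leave it out while the orthogroup length holds it. The named genes were those with an ID in the study's tables, and the unnamed ones were the 2 called orthogroups in each direction with the widest gap between the replicates of the species. Alternatives were other pseudocounts (0.1 and 5), no filter or a mean of 20 TPM, median-ratio and quantile scaling, no gene length, no trend, all 16 libraries, a replicate block, each library left out, a 2-fold threshold, and edgeR 4.0.16 and DESeq2 1.42.0 on expected counts rounded to whole numbers. Members, lists and tests were chosen with earlier results of these data known. The authors' genome sequences were not used here.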

Additional observations from a re-analysis of the deposited data

Results flagged for a closer look

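Each group of 4 values was examined for 1 library far from the others, meaning that its distance to the nearest library took up more of the range of the group than Dixon's 95% limit allows. Of 44 groups 3 met this, and chance gives about 1 in 20. *GAL4* had 67.07 TPM in Shag replicate 3 and 83.7 to 85.7 TPM in the other Shag libraries. The difference of *GAL4* between the species was called only when this library was left out or under some other settings. OG0000993 had 0.1447 TPM in Smen replicate 1 and was listed at 0 in the other Smen libraries. With all other values at 0 the measure is at its maximum whatever the remaining value, so this flag was fixed in advance. The 10 most abundant orthogroups took 13.91% of TPM in Smen replicate 4 and 13.2% to 13.3% in the other Smen libraries.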

How the results depend on the processing

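Over 21 alternatives no named difference changed sign. The 9 glycolysis and fermentation genes were called in each of them, except *TPI*, *TDH* and *ENO* under the 2-fold threshold. Under that threshold 663 orthogroups were called, 359 higher in Shag and 304 higher in Smen. The other alternatives that kept all libraries gave 2275 to 3140 calls, with 2868 without gene length, 3036 by edgeR and 3140 by DESeq2. Leaving out 1 library gave 2503 to 3183 calls, 1335 to 1817 higher in Shag and 1163 to 1472 higher in Smen. Median-ratio scaling gave 1537 and 1528. *GAL4* was also called with quantile normalization (0.24, limma adjusted p = 0.0181), with all 16 libraries (0.22, limma adjusted p = 0.0325) and by DESeq2 (0.17, adjusted p = 0.0414). The cause was not tested. Samples of the same replicate number did not deviate together (correlations of -0.162 to 0.022). No pairing by number was thus seen, though these few values cannot exclude one. With a replicate block 2663 orthogroups were called, 1425 higher in Shag and 1238 higher in Smen. With at least 5 TPM required, the orthogroups found only in Shag fell by 61 and those found only in Smen by 38. Counting depth limits the values near 0, such as OG0000993 in Smen and OG0002083 in Shag.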
